A study of Solanum lycopersicum with 4 samples.

Results

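The core circadian clock genes of tomato (Solanum lycopersicum) are described here in wild-type shoot apical meristems, the dome of dividing cells at the shoot tip, at the transition to flowering and before it. The group holds 10 gene identifiers chosen by name: LHY (Solyc10g005080), PRR9 (Solyc10g086000), PRR7 (Solyc10g005030), PRR5 (Solyc03g081240), GI (Solyc04g071990 and Solyc12g056650), FKF1 (Solyc01g005300), TOC1 (Solyc03g115770 and Solyc06g069690) and LUX (Solyc06g005680). All 10 were found among the 34722 identifiers of the table, and all 10 passed the filter on low values that left 19607 genes for testing. The names are those under which the identifiers were selected from tomato nomenclature, with earlier results of these data known. Neither the file nor the RefSeq gene table, which matched 0 of the identifiers, could be used to check them.

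RNA sequencing was done on meristems dissected from acetone-fixed, greenhouse-grown seedlings aged between 2 and 12 days. The transitional group comprised 2 wild-type libraries (A and B) of meristems in floral transition, and the vegetative group comprised 2 wild-type libraries (C and D) of meristems still vegetative after forming 6 leaves. The labels give no hour of collection for any library, so stage and hour of collection cannot be told apart in these 4 libraries. Whether the replicates are from separate plants is also not stated, so the p-values measure only the spread between these libraries, which may be technical.

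The plant clock is a set of genes that repress or activate one another in turn through the day, and its parts are best known from Arabidopsis. There the MYB factor LHY peaks in the morning. The pseudo-response regulators follow in sequence, PRR9 in the morning, PRR7 around midday and PRR5 in the afternoon. GI and FKF1 peak from afternoon to dusk and join light sensing to photoperiodic flowering, and TOC1 and LUX peak in the evening and close the loop by repressing morning genes. The genes are ordered below by these known peaks, which are background from Arabidopsis and were not measured here.

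Libraries A and B held 21977345 and 22094423 reads in genes, and C and D held 16141074 and 23043526. Values are normalised counts, that is, reads divided by 1 size factor per library. They are not corrected for gene length, so levels are compared between libraries and not between genes. Among 5 meristem identifiers (KNOX, WUSCHEL and CLAVATA classes) all had reads in the table, with summed levels of 11924 and 11049 normalised counts in A and B against 15207 and 14433 in C and D. By limma 2 of the 5 fell and 0 rose, against 1.19% and 2.70% of all genes tested. Both transitional values lay below both vegetative ones for 3 of the 5, against 24.3% of all genes tested. They lay above for 1 (log2 change 0.47), against 25.0%. In bulk tissue, fewer cells of a type and less RNA per cell cannot be told apart. The transitional libraries lay farther apart than the vegetative ones: over the 14600 genes averaging 100 or more normalised counts, the SD of the log2 difference was 0.274 between A and B and 0.187 between C and D.

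Transitional meristems had less RNA of the morning gene LHY and of PRR7, and more of PRR5, FKF1 and GI Solyc04g071990, than vegetative meristems. LHY fell 2.79-fold, PRR5 rose 3.56-fold, FKF1 2.84-fold and GI Solyc04g071990 2.64-fold as ratios of group means. Of the 10 clock genes 3 rose, against 2.70% of all genes tested, and 2 fell, against 1.19% (limma on log2(value + 1), Benjamini-Hochberg adjusted p under 0.05). The other 5 did not pass the test, although 4 of them stood higher in both transitional libraries than in both vegetative ones. In all, 7 members had both transitional values above both vegetative values, as 25.0% of tested genes did, and 2 had both below, as 24.3% did. The median log2 change over the 10 members was 0.46, against 0.01 over all genes tested. Because the 10 were chosen with earlier results of these data known, these contrasts with all genes are not independent of the data.

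**Figure D1:**
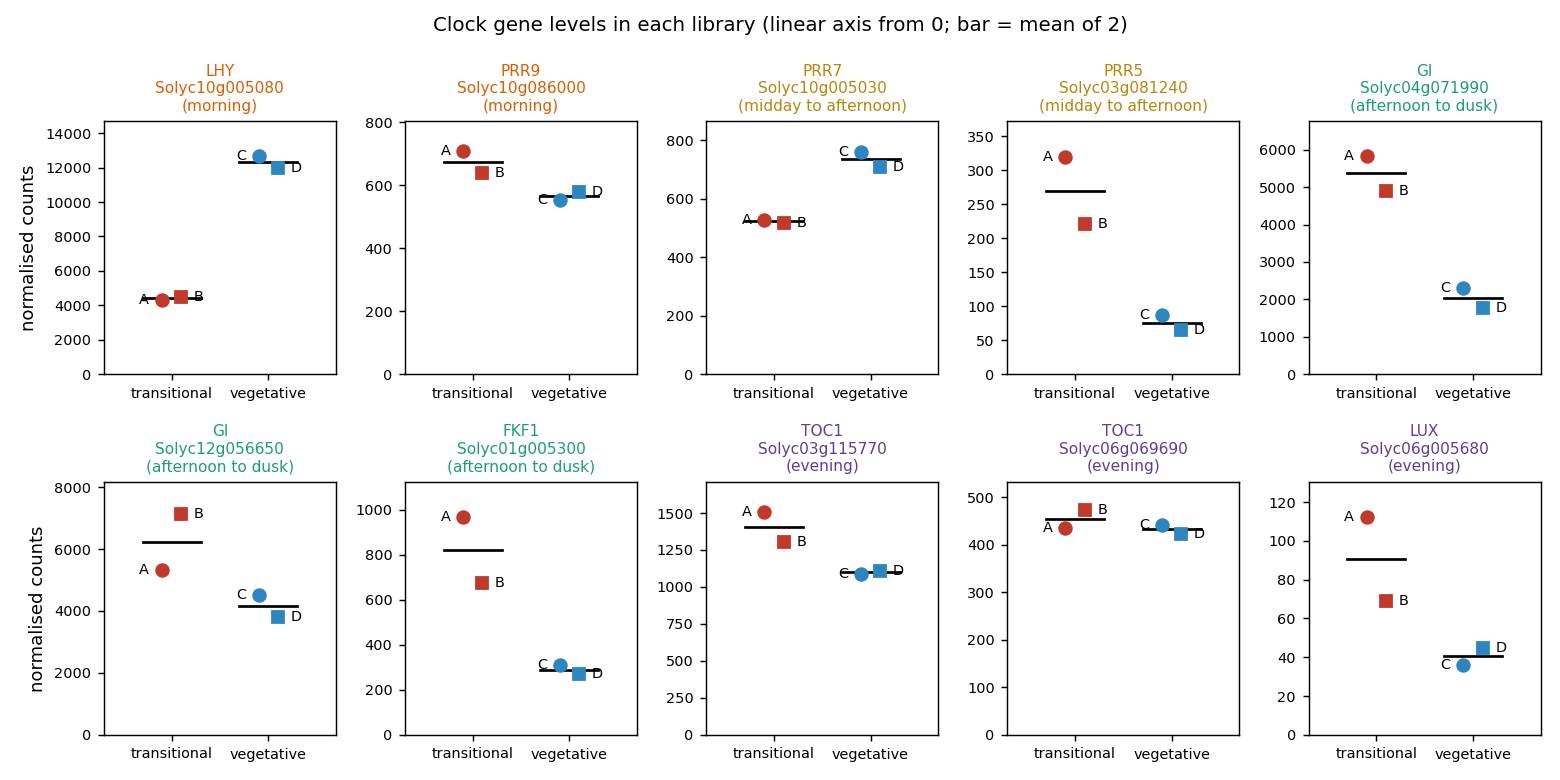
Normalised counts (linear axes from 0) of each of the 10 clock genes in transitional libraries A and B (red, left) and vegetative libraries C and D (blue, right), with a bar at the mean of each group. LHY and PRR7 are lower in both transitional libraries, TOC1 Solyc06g069690 is the 1 gene whose groups overlap, and the other 7 are higher in both transitional libraries.

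LHY encodes the morning MYB repressor at the centre of the Arabidopsis clock. It stood at 4336 and 4502 normalised counts in libraries A and B, against 12700 and 12000 in libraries C and D. Each pair of replicates was close together and the groups were far apart, with a log2 change of -1.48 (SE 0.08, limma adjusted p = 0.000746). Only 5 of the 19607 genes tested had a smaller p. Of the 354 genes at or above its mean level, 0 fell by more. PRR9, which in Arabidopsis represses LHY from the morning on, stood at 708 and 639 in A and B, against 552 and 579 in C and D. Its values did not overlap between the stages but the difference did not pass the test (log2 change 0.25, 95% interval 0.02 to 0.48, limma adjusted p = 0.238). The pair known for a morning peak in Arabidopsis therefore showed 1 gene that fell and 1 with a small positive difference.

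PRR7 and PRR5 are later members of the same repressor family, and they changed in opposite directions. PRR7 stood at 529 and 518 normalised counts in A and B, against 760 and 710 in C and D, a fall of 1.40-fold (log2 change -0.49, SE 0.09, limma adjusted p = 0.0335). PRR5 stood at 319 and 221 in A and B, against 86.9 and 64.6 in C and D (log2 change 1.81, SE 0.23, limma adjusted p = 0.00879). PRR5 had the largest positive change of the 10 genes and PRR7 the smallest called one. The vegetative PRR5 values rest on 63 reads in C and 66 in D, and the exact 95% counting interval of the C value is 66.8 to 111 normalised counts. Within the libraries, PRR5 reads were 0.603 and 0.426 times the PRR7 reads in A and B, against 0.114 and 0.0909 in C and D. That ratio needs no scaling between libraries, but its direction follows from the opposite changes of the 2 genes. It differed by 2.31 on the log2 scale (exact two-sided permutation p = 0.333, the smallest that 2 libraries against 2 can give).

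GI, a large protein that stabilises other clock proteins and promotes photoperiodic flowering in Arabidopsis, is represented by a pair of identifiers. Solyc04g071990 stood at 5832 and 4900 normalised counts in libraries A and B, against 2305 and 1766 in libraries C and D. It rose by 1.41 on the log2 scale (SE 0.14, limma adjusted p = 0.00432), and of the 1212 genes at or above its mean level only 3 rose by more. Solyc12g056650 stood at 5318 and 7121 in A and B, against 4502 and 3796 in C and D. It was also higher in both transitional libraries, with a smaller difference that did not pass the test (log2 change 0.57, 95% interval 0.23 to 0.92, limma adjusted p = 0.0937). The ratio of Solyc04g071990 reads to Solyc12g056650 reads was 1.10 in A and 0.688 in B, against 0.512 and 0.465 in C and D. It was higher in both transitional libraries, by a mean of 0.83 on the log2 scale (exact two-sided permutation p = 0.333, again the smallest possible). DESeq2 on the recovered reads called Solyc12g056650 higher (log2 change 0.58, adjusted p = 0.00133). The other 10 alternatives that kept all libraries did not, and its adjusted p ranged between 0.00133 and 0.259 over the 11. Its log2 change was 0.78 without transitional A and 0.36 without transitional B, by limma and by edgeR alike.

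FKF1 is a blue-light receptor and F-box protein that works with GI in Arabidopsis to remove repressors of flowering. It stood at 968 and 677 normalised counts in A and B, against 309 and 270 in C and D. Both transitional values lay well above both vegetative ones, and the gene rose by 1.48 on the log2 scale (SE 0.17, limma adjusted p = 0.00661). Of the 3 afternoon-to-dusk identifiers, which include both of GI, 2 rose, against 2.70% of all genes tested. All 3 stood higher in both transitional libraries, as 25.0% of tested genes did. Their median log2 change was 1.41, against 0.01 over all genes tested.

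TOC1, the evening pseudo-response regulator, is also represented by a pair of identifiers, and neither passed the test. Solyc03g115770 stood at 1505 and 1304 normalised counts in A and B, against 1086 and 1110 in C and D, without overlap (log2 change 0.35, 95% interval 0.13 to 0.57, limma adjusted p = 0.0998). Solyc06g069690 stood at 436 and 472 in A and B, against 441 and 424 in C and D. Its groups overlapped, and the 95% interval of the log2 change, -0.17 to 0.31, corresponds to 0.888- to 1.24-fold. Reads of Solyc03g115770 were 3.45 and 2.76 times those of Solyc06g069690 in A and B, against 2.46 and 2.62 in C and D.

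LUX is a MYB-like factor of the Arabidopsis evening complex, which represses daytime genes at night. It stood at 113 and 68.8 normalised counts in A and B, against 35.9 and 45.0 in C and D. The groups did not overlap, but few reads lie behind the values (111, 68, 26 and 46 in A, B, C and D), and the log2 change of 1.11 had a 95% interval of 0.42 to 1.80 (limma adjusted p = 0.0998). Without transitional B, limma called LUX (log2 change 1.46, adjusted p = 0.0434) and TOC1 Solyc03g115770 (log2 change 0.45, adjusted p = 0.0242). With all 4 libraries limma called 0 of the 3 evening identifiers, and each of the 11 alternatives that kept all libraries called 0 as well. By limma 2 of the 3 had an unadjusted p under 0.05, as did 3470 of the 19607 genes tested.

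**Figure D2:**
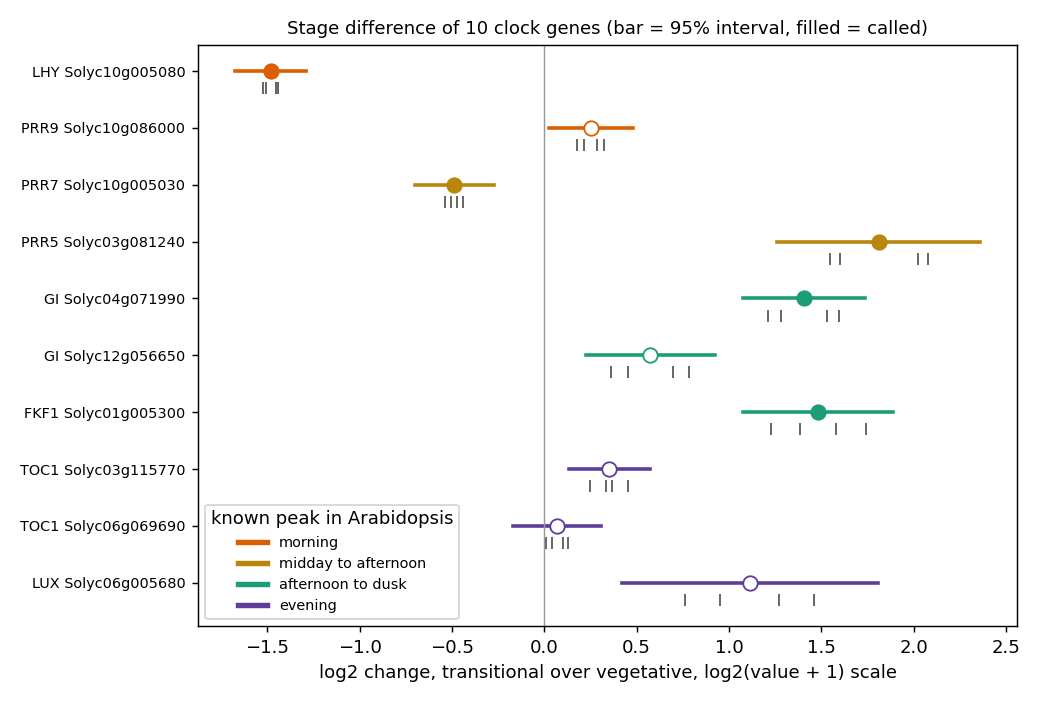
Log2 change (transitional over vegetative, log2(value + 1) scale) of each clock gene with its 95% interval from limma, ordered and coloured by the known peak in Arabidopsis; filled circles passed the test, and grey ticks below each bar are the changes with each library left out in turn. LHY at -1.48 and PRR7 at -0.49 lie left of 0, and PRR5, GI Solyc04g071990 and FKF1 lie between 1.41 and 1.81. Every tick keeps its gene's sign, which was fixed in advance for the 9 genes whose groups do not overlap.

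Read along the known order of peaks, the changes did not follow a single direction. Of the morning and midday genes, LHY and PRR7 fell, and PRR9 stood higher without passing the test. PRR5, known for an afternoon peak, rose. From PRR5 to the dusk genes all values were higher in transitional meristems. The evening genes ranged from no detectable difference for TOC1 Solyc06g069690 to a 2.24-fold higher mean for LUX, which did not pass the test.

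LHY was compared with each of the other 9 clock genes as a ratio of reads inside each library, which removes the size factors. Such a ratio depends on gene length, so it is compared between libraries only. LHY reads were 0.743 and 0.919 times those of GI Solyc04g071990 in A and B, against 5.51 and 6.80 in C and D. They were 13.6 and 20.4 times those of PRR5 in A and B, against 146 and 186 in C and D. Against PRR7, which fell too, the ratios were 8.20 and 8.69 in A and B, against 16.7 and 16.9 in C and D. The LHY ratio was lower in both transitional libraries for all 9 genes, by 0.99 to 3.31 on the log2 scale, with an exact two-sided permutation p of 0.333 in each case. The 9 ratios share their LHY reads and are not independent of one another. LHY was lower in both transitional libraries, so the direction was fixed for the 7 genes that were higher in both. The ratios restate the changes above and are no separate support for them.

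**Figure D3:**
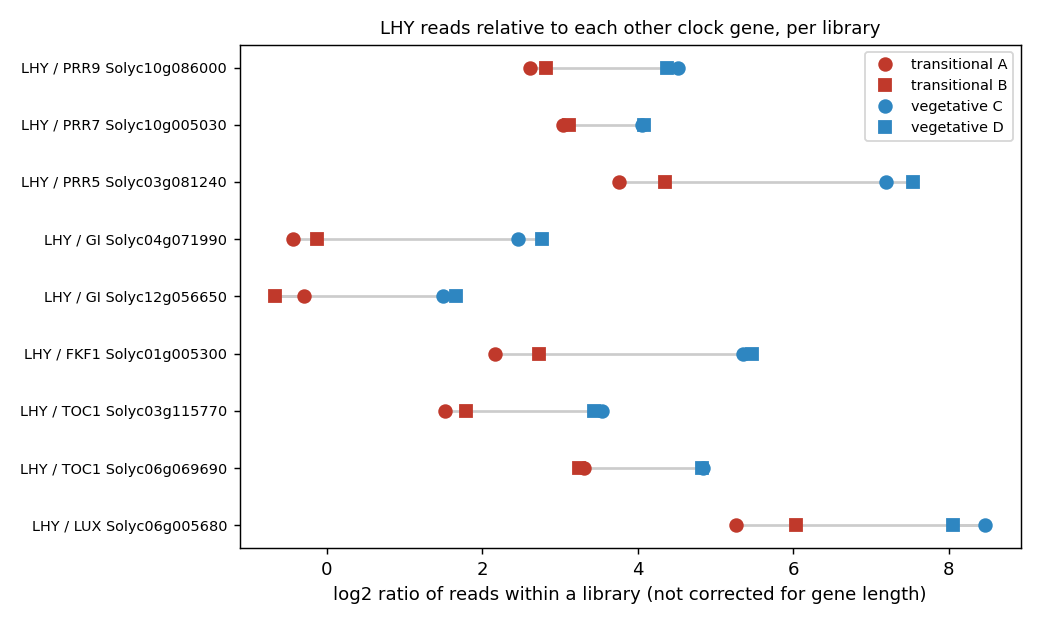
Log2 ratio of LHY reads to the reads of each other clock gene inside transitional libraries A and B (red) and vegetative libraries C and D (blue); positions of different rows depend on gene length and are not compared. In each of the 9 rows both red points lie left of both blue points, by the least for PRR7 and by the most for PRR5.

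Replicates differed by gene. Within the transitional group A exceeded B for 7 of the 10 clock genes, against 52.6% of all genes tested. The log2 differences were 0.70 for LUX, 0.53 for PRR5 and 0.52 for FKF1, while that of GI Solyc12g056650, lower in A, was -0.42. LHY and PRR7 differed by only -0.05 and 0.03 between A and B. Within the vegetative group C likewise exceeded D for 7 of the 10 clock genes, against 49.1% of all genes tested. The widest differences between C and D were 0.42 for PRR5 and 0.38 for GI Solyc04g071990, with C higher. Leaf photosynthesis genes (Rubisco small subunit and chlorophyll-binding identifiers) were taken as markers of expanding leaf. They stood higher in A than in B for 16 of 16 members, against 52.6% of all genes tested. In the vegetative pair the lean was the other way, with C above D for 4 of the 16, against 49.1%. Summed levels of the 16 leaf genes were 14397 and 9250 normalised counts in A and B, against 12537 and 14736 in C and D. Their part in the clock values was not tested. By limma 0 of these 16 genes rose and 3 fell with stage, against 2.70% and 1.19% of all genes tested. At an unadjusted limma p under 0.05 there were 5 of them, all lower, against 3470 of the 19607 genes tested, 1919 of them higher. edgeR, DESeq2 and limma-voom called 0 of the 16 higher and 2, 4 and 2 lower. Their log2 changes ranged between -1.47 and 1.94, with a median of -0.01. Both transitional values lay below both vegetative ones for 5 of the 16, against 24.3% of all genes tested, and above for 1, against 25.0%.

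By limma, the calls on the 5 clock genes depended on having both vegetative libraries. Leaving out C or D takes the replicate spread from A and B alone, the pair that lay farther apart. Without C, or without D, limma called 0 of the 19607 genes, while 1577 and 1867 genes, 6 clock genes among them each time, had an unadjusted p under 0.05. The log2 changes of the 5 genes kept their signs, which was fixed in advance because their groups did not overlap. LHY had a log2 change of -1.44 without C (adjusted p = 0.124) and -1.52 without D (adjusted p = 0.116), PRR5 2.023 and 1.599 (adjusted p = 0.212 and 0.257), and GI Solyc04g071990 1.598 and 1.213 (adjusted p = 0.135 and 0.190). For FKF1 the changes were 1.58 and 1.39 (adjusted p = 0.239 and 0.257) and for PRR7 -0.44 and -0.54 (adjusted p = 0.493 and 0.323). edgeR on the recovered reads still called LHY (adjusted p = 0.0204) and GI Solyc04g071990 (adjusted p = 0.0234) without C, and 0 clock genes without D, where 7 had an unadjusted p under 0.05. With all 4 libraries edgeR called the same 5 clock genes in the same directions, and 485 genes higher and 207 lower in all.

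**Figure D4:**
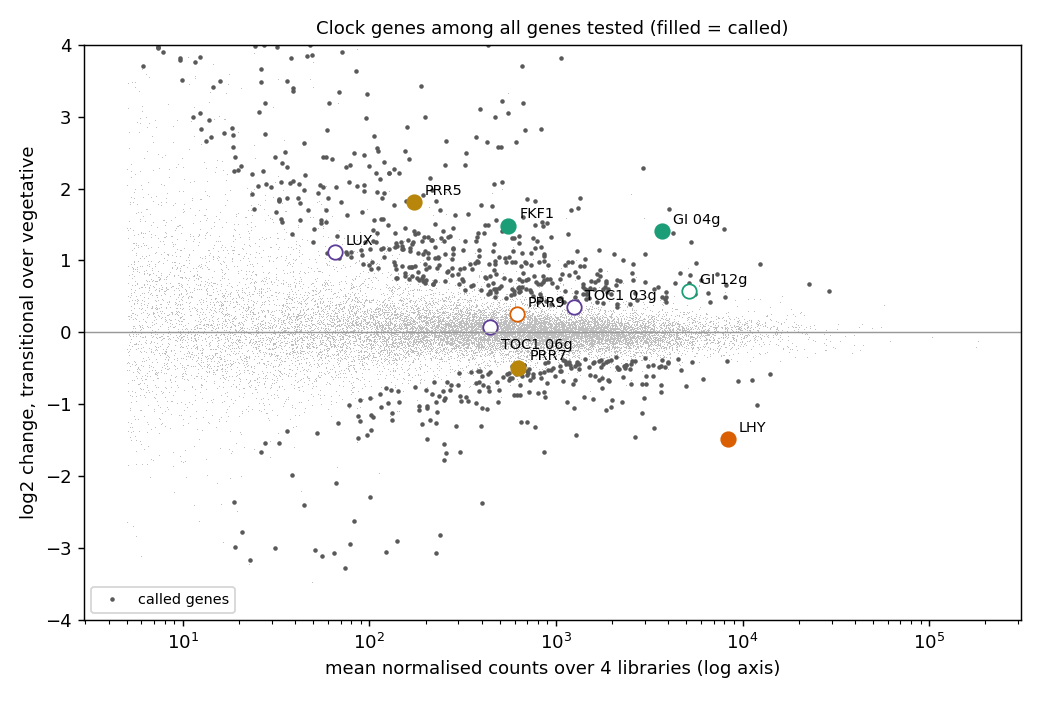
Log2 change (transitional over vegetative) against mean normalised counts over the 4 libraries (log axis) for all 19607 genes tested, with called genes in dark grey and the clock genes in colour by known peak (filled where called); 60 genes lie beyond the axis limit of 4. LHY is the lowest point among the genes at or above its level, and GI Solyc04g071990 lies near the upper edge at its level.

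Other clock and light genes were read from a list of 28 further identifiers, recalled from nomenclature and likewise unchecked; all were found and 26 were tested. By limma 0 rose and 3 fell, by log2 changes between -0.87 and -1.77, and the median was -0.11, against 2.70% rising, 1.19% falling and a median of 0.01 over all genes tested. edgeR, DESeq2 and limma-voom gave the same counts. By limma 11 of the 26, 1 of them higher, had an unadjusted p under 0.05, as did 3470 of the 19607 genes tested, 1919 of them higher. Among 6 further clock-associated identifiers (ELF3, LNK2, EID1 and ZTL classes) limma called 0, with changes between -0.36 and 0.16. Among 9 photoreceptor identifiers (phytochromes and cryptochromes) limma also called 0, with changes between -0.39 and 0.19. At an unadjusted p under 0.05 there were 2 of the clock-associated and 3 of the photoreceptor identifiers, all lower, and the other tools called 0 of either class. The 5 identifiers listed as CDF, a class of DOF-type repressors of flowering in Arabidopsis, all had negative log2 changes, and 2 of them fell, by -1.06 and -1.77 on the log2 scale. Over all genes tested 1.19% fell and 10024 of 19607 had a positive change, and the division of the list into these classes was made after its values were seen. Of 4 tested PIF identifiers, light-responsive growth regulators, 1 fell, and neither of the 2 light signalling identifiers (COP1 and HY5) was called or had an unadjusted p under 0.05.

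Position was looked at through the order of the identifiers, which in tomato follows the chromosome. LHY and PRR7 carry neighbouring identifiers on the same chromosome, with 3 identifiers between them in the table. Of these, Solyc10g005060, singled out after its values were seen and not annotated in the files, stood at 1000 and 684 normalised counts in A and B, against 141 and 135 in C and D (log2 change 2.58, limma adjusted p = 0.00116), opposite in sign to LHY and PRR7. Solyc10g005050 had a log2 change of 0.07 and was not called, and the remaining identifier was under the filter. Over all identifiers within 5 places of a clock gene, the clock genes themselves left out, 65 were tested. Of these 3 rose and 1 fell, against 2.70% and 1.19% of all genes tested, and their median log2 change was -0.02.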

How the data were processed

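The deposited table holds 1 normalised signal value for each gene in each library, which are gene counts that the authors divided by a size factor. Per the submitters' processing notes, TopHat2 2.0.10, HTSeq 0.6.1p1 and DESeq2 1.6.3 were used; the sources used here do not give their roles, the genome build, the annotation or the treatment of strand or near-identical copies, so the paired GI and TOC1 identifiers are uncertain where reads could be split. Whole reads were recovered from the step of each column (100% of values above 0 within a relative tolerance of 1e-06).

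limma 3.58.1 (trend; R 4.3.3) was fitted on log2(value + 1) for the 19607 genes averaging 5 or more, with stage as the only term (2 residual and 5.18 prior degrees of freedom). This scale slightly understates changes of low genes. P-values were adjusted over all genes tested by the Benjamini-Hochberg method. Alternatives were edgeR 4.0.16, DESeq2 1.42.0 and limma-voom on recovered reads, other scalings, filters and pseudocounts, and leaving out each library; leaving out libraries within edgeR was added after the data were seen. Permutation tests used SciPy 1.17.1 in Python 3.11.15. The clock genes and the other lists, recalled from published nomenclature, were chosen with earlier results of these data known; the division of the further clock and light list by role was made after its values were seen. All 10 clock genes are named, and other genes are given as counts, except for 2 identifiers between PRR7 and LHY that were chosen after their values were seen.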

Additional observations from a re-analysis of the deposited data

How the results depend on the processing

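No clock gene changed sign in any of 19 alternatives. For the 9 genes whose groups did not overlap, leaving out 1 library could not reverse the sign at the deposited scaling. The alternatives that kept all libraries refit the same 4 libraries. With all 4 libraries, LHY was called in 11 of 11 alternatives, and PRR7, PRR5, FKF1 and GI Solyc04g071990 in 10 of 11. The exception was the fit with no filter on low values, where limma called 6 genes higher and 1 lower in all, and 0 clock genes higher and 1 (LHY) lower. When 1 library was left out, limma and edgeR called between 0 and 1746 genes higher and between 0 and 1081 lower, with 0 to 7 clock genes called higher and 0 to 2 lower. In these fits the lone sample of a stage is assumed to vary like the other stage. The upper ends come from edgeR without transitional B, and limma gave at most 5 clock genes higher. Over the 10 clock genes and 19 alternatives, 159 of 190 values kept their side of the threshold, 22 lost a call and 9 gained one. No paired analysis was possible because the titles letter the vegetative libraries C and D and the transitional ones A and B, and the descriptions, which letter the vegetative libraries A and B, number the transitional ones; neither field gives both stages the same marks. The lowest read numbers, 26 for LUX and 63 for PRR5 in vegetative C, limit the precision of those values. With 2 libraries per stage and no hour of collection, a difference of stage cannot be told apart from any other difference between these libraries.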
